A study of Mus musculus with 58 samples.

Results

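Transforming growth factor beta (TGF-beta) signalling was described through 10 genes, chosen by symbol: the ligands Tgfb1, Tgfb2 and Tgfb3, the receptors Tgfbr1, Tgfbr2 and Tgfbr3, the latent ligand binding protein Ltbp1, the intracellular mediators Smad3 and Smad7, and the matrix protein Tgfbi. All 10 were among the 15171 genes of the count table, and all 10 passed the filter on low counts. Their counts ran from 13 (Tgfb1) to 4413 (Smad3) reads in single libraries.

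TGF-beta ligands are secreted in a latent complex, held in the extracellular matrix by binding proteins such as Ltbp1, and must be released before they can act. A released dimer binds Tgfbr2, which phosphorylates Tgfbr1, and Tgfbr1 in turn phosphorylates Smad2 and Smad3, which enter the nucleus with Smad4. Tgfbr3 (betaglycan) presents ligand, Tgfb2 above all, and Smad7 is an inhibitor that the pathway itself induces. In the brain, TGF-beta1 is made largely by microglia and keeps them in their resting state, and the pathway takes part in the astrocytic and fibrotic scar that follows injury.

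RNA was sequenced from hippocampus and cortex at the injury site of 58 mice on a C57BL/6 background, 3 months old, of both sexes. Every mouse, controls included, carried human APOE in place of the mouse gene (targeted replacement), either APOE3 (E3) or APOE4 (E4), so no group carried mouse Apoe. Mice had 2 functional copies of Abca1 (Abca1+/+) or 1 (Abca1+/-), in all cells. Injured mice (TBI) had a craniotomy of 4.5 mm in the left hemisphere and a controlled cortical impact 1.0 mm deep with a 3.0 mm tip, sham mice had the craniotomy without the impact, and tissue was taken 14 days later. The groups were E3/Abca1+/+ (8 sham and 8 TBI mice), E3/Abca1+/- (7 and 6), E4/Abca1+/+ (7 and 7) and E4/Abca1+/- (7 and 8).

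Libraries held 4421308 to 37877346 counts. Those of Abca1+/- mice had a median of 18871446 counts (n = 28) and those of Abca1+/+ mice of 8350020 (n = 30), and the deepest Abca1+/+ library was exceeded by 21 of the 28 Abca1+/- ones, so Abca1 genotype and library depth cannot be told apart in most libraries. Abca1, the gene deleted, was lower in Abca1+/- mice over all groups with a log2 fold change (expression ratio on the log2 scale) of -0.42, a standard error (SE) of 0.09 and an adjusted p of 0.000816. Within groups the fold changes were -0.45 (SE 0.08, adjusted p = 0.00999) in E3 sham, -0.36 (SE 0.09, adjusted p = 0.0785) in E4 sham, -0.71 (SE 0.18, adjusted p = 0.124) in E3 TBI and -0.18 (SE 0.25, adjusted p = 0.755) in E4 TBI mice. In sham mice it averaged 48.5 ± 6.92 CPM (counts scaled by library size, the CPM of edgeR; SD, n = 8) in E3/Abca1+/+ and 45.6 ± 6.42 (SD, n = 7) in E4/Abca1+/+ mice, against 35.3 ± 3.84 (SD, n = 7) in E3/Abca1+/- and 35.8 ± 4.86 (SD, n = 7) in E4/Abca1+/- mice. In TBI mice the means were 170.0 ± 54.7 and 104 ± 21.1 CPM in E3 mice (Abca1+/+, n = 8, then Abca1+/-, n = 6) and 156 ± 74.6 and 138 ± 44.5 CPM in E4 mice (n = 7 and 8), so that in injured E4 mice Abca1 itself differed by less than its spread. Neuron markers summed to 5257 to 7425 CPM in every group's mice, none of the 8 markers at 0. The 5 choroid plexus markers summed to between 11.2 and 2019 CPM, with a wide spread within most groups. Their highest sum was 27.6 CPM in E3/Abca1+/+ sham mice and 1021 CPM or more in each other group. The means (Abca1+/+, then Abca1+/-) were 19.6 and 371 CPM in E3 sham and 185 and 326 CPM in E3 TBI mice. In E4 mice they were 282 and 504 CPM in sham and 352 and 627 CPM in TBI mice. The part of choroid plexus in the results was not tested.

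A pair of libraries stood apart by their markers. In E4/Abca1+/- TBI replicate 8, the 4 subcortical markers summed to 331 CPM, against at most 129.7 CPM in the other 57 mice, the microglia markers were the highest of all mice (1264 CPM) and the fibroblast markers the lowest (94.5 CPM). In E3/Abca1+/+ TBI replicate 8, the fibroblast and endothelial markers were the highest of all mice (463 and 305 CPM). Many results that include these mice are given with and without them, but not all.

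The start regions of the 4 genes that rose with TBI in every genotype are shown because these genes moved together. Each is the 250 bases before the annotated start, 5′ to 3′ on the gene's own strand, from RefSeq on GRCm38.p6. Tgfb1 starts after chr7:25686752-25687001 (plus strand), Tgfbr1 after chr4:47352972-47353221 (plus strand), Tgfbr2 before chr9:116175364-116175613 (minus strand) and Tgfbi after chr13:56609336-56609585 (plus strand). Capitals mark CAGAC, a short Smad-binding element, on either strand (GTCTG on the other strand).
Tgfb1: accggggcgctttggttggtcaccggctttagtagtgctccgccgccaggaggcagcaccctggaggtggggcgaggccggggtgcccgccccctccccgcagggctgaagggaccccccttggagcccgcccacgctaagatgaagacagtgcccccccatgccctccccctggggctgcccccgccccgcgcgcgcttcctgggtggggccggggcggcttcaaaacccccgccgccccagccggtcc
Tgfbr1: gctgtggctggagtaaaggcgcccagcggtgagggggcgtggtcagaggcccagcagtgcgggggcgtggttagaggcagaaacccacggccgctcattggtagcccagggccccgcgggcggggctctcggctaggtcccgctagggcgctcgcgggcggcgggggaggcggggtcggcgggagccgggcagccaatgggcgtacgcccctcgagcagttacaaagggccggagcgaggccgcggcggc
Tgfbr2: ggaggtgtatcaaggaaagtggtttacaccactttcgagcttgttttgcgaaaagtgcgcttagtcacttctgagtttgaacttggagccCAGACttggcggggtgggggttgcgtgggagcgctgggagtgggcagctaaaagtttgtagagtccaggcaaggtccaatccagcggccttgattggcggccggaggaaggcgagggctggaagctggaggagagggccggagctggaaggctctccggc
Tgfbi: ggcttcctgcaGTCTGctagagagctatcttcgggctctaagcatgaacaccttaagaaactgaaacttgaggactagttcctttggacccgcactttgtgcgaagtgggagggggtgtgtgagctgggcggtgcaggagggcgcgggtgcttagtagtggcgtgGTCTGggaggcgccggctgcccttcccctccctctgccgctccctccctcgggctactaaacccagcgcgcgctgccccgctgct

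CAGAC stood once before Tgfbr2, 160 bases from its start, and at 239 and 85 bases before Tgfbi, and was not found in the windows of Tgfb1 and Tgfbr1. Of 32851 promoters of the same length, 42.2% held it. The AP-1 site TGANTCA was in none of the 4 windows and in 6.7% of all promoters. The GC box GGGCGG, read on both strands, occurred 5 times before Tgfb1, 2 times before Tgfbr1, once before Tgfbi and not before Tgfbr2, and 32.7% of all promoters held at least 1. The windows of Tgfb1 and Tgfbr1 were 75.2% and 74.8% G and C, those of Tgfbi and Tgfbr2 62.4% and 58.4%. CAGAC was not limited to genes that rose with TBI in every genotype. In windows of the same length it occurred 2 times before Tgfb2, 1 time before Ltbp1 and 0 times before Smad3. The windows of Tgfb3, Tgfbr3 and Smad7 are not reported here. Whether CAGAC goes with the response to TBI was not tested.

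TBI raised the same 4 genes in all 4 genotypes: the ligand Tgfb1, the signalling receptors Tgfbr1 and Tgfbr2, and Tgfbi. Over all groups, Tgfbi rose 2.72-fold, Tgfb1 2.22-fold, Tgfbr2 1.91-fold and Tgfbr1 1.66-fold. The fold changes over all groups were 1.46, 1.14, 0.93 and 0.72 on the log2 scale without E4/Abca1+/- TBI replicate 8 and 1.39, 1.12, 0.91 and 0.72 without E3/Abca1+/+ TBI replicate 8. The other 6 genes differed by at most 0.34 on the log2 scale in any genotype. None of the 10 fell in any genotype, where 9.49%, 10.1%, 4.5% and 12.7% of all genes fell in E3/Abca1+/+, E3/Abca1+/-, E4/Abca1+/+ and E4/Abca1+/- mice. Markers of microglia moved with these genes: all 8 were higher after TBI over all groups, where 29% of all genes were. Their summed level was 341 to 521 CPM in sham and 608 to 1264 CPM in TBI mice, with none at 0. In RNA from whole tissue, more cells of a type and more RNA per cell cannot be told apart.

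By edgeR's quasi-likelihood test at an adjusted p of 0.05 over all 15171 genes, 5 of the 10 were higher after TBI in E3/Abca1+/+ mice, where 13.3% of all genes were, 4 in E3/Abca1+/- mice (13.7% of all genes), 4 in E4/Abca1+/+ mice (9.24%) and 5 in E4/Abca1+/- mice (19.7%). The 4 genes called in all 4 genotypes compare with 7.28% of all genes. Every TBI mouse lay above every sham mouse for 2 of the 10 genes in E3/Abca1+/+ (4.36% of all genes), 3 in E3/Abca1+/- (6.57%), 2 in E4/Abca1+/+ (3.76%) and 4 in E4/Abca1+/- mice (7.36%). In the contrast over all 58 mice, 7 of the 10 were higher, against 29% of all genes, and 0 were lower, against 24.3% of all genes. The median log2 fold change there was 0.22 over the 10 genes and 0.01 over all genes. The scatter of every mouse and the fold changes by genotype are drawn in the panels per gene and in the plot of log2 fold changes.

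**Figure D1:**
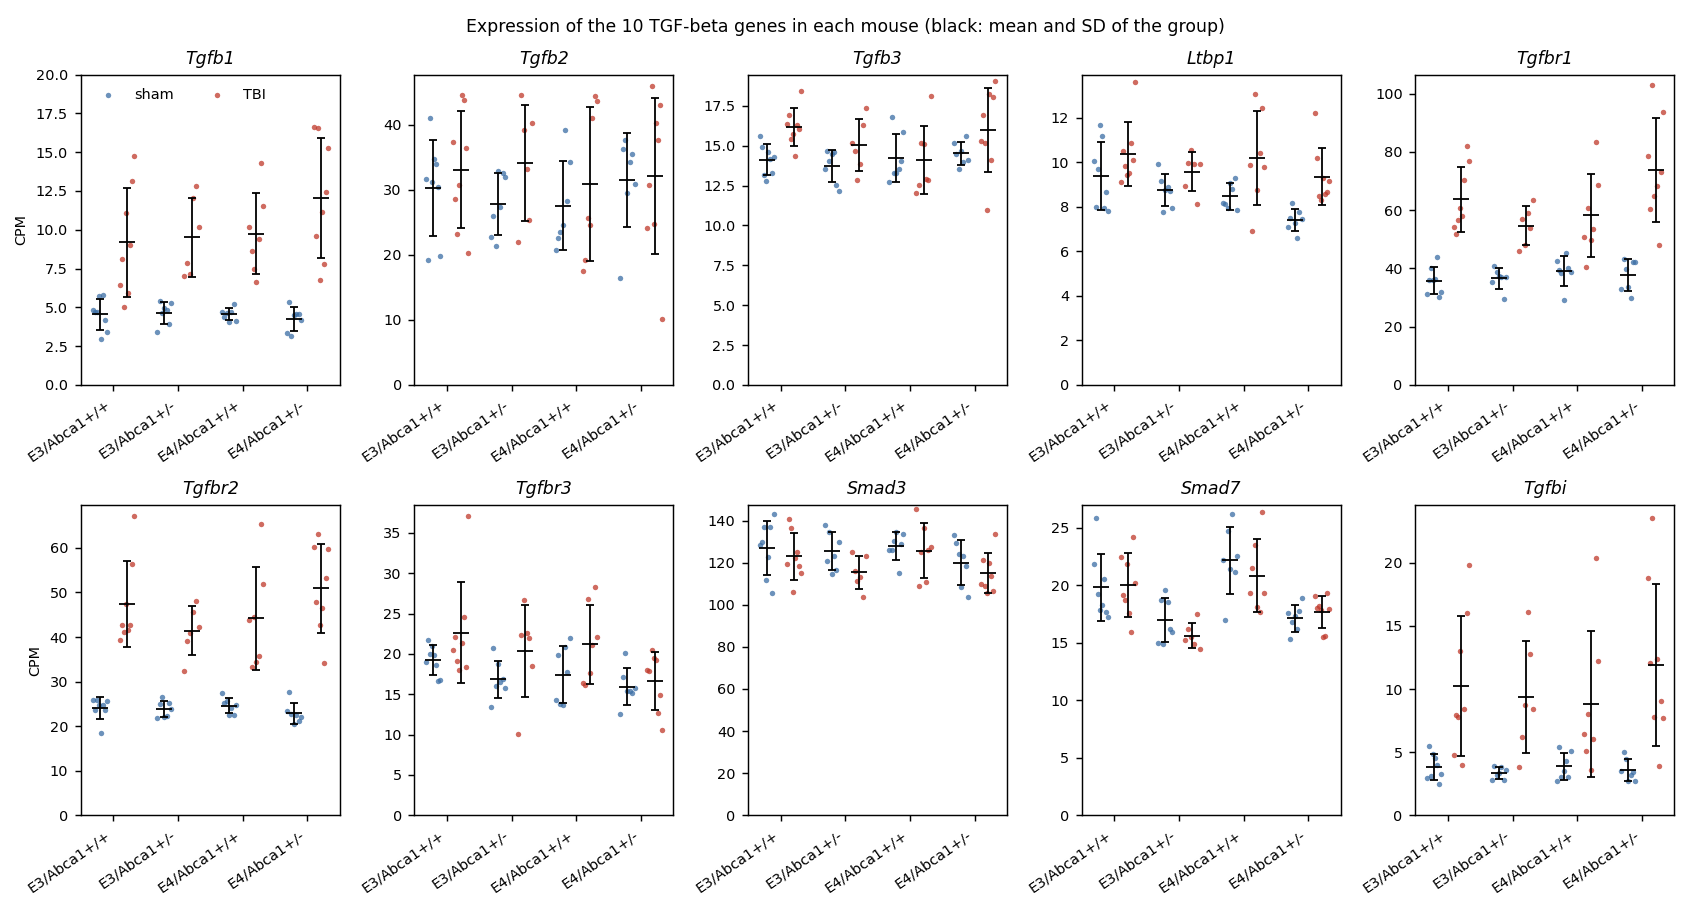
CPM of the 10 TGF-beta genes in each of the 58 mice, by genotype, with sham mice in blue and TBI mice in red and each group's mean and SD in black. The mean of the TBI mice lies above that of the sham mice for Tgfb1, Tgfbr1, Tgfbr2 and Tgfbi in all 4 genotypes, while sham and TBI mice overlap in all 4 for Smad3 and Tgfb2 and the means of Smad7 are lower in the Abca1+/- groups.

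Tgfb1, the ligand made mainly by microglia and macrophages (gene 21803, chr7:25687002-25705077, plus strand, GRCm38), was the one ligand that rose in all 4 genotypes. In E3/Abca1+/+ mice the lowest, median and highest level was 2.97, 4.69 and 5.81 CPM in 8 sham mice and 5.01, 8.54 and 14.8 CPM in 8 TBI mice. In E3/Abca1+/- mice the lowest, median and highest level was 3.39, 4.85 and 5.39 CPM in 7 sham mice and 7.02, 9.01 and 12.8 CPM in 6 TBI mice. In E3/Abca1+/+ the lowest injured mouse lay within the range of the sham mice, and in E3/Abca1+/- none did. In E4/Abca1+/+ mice the lowest, median and highest level was 4.04, 4.64 and 5.21 CPM in 7 sham mice and 6.65, 9.37 and 14.3 CPM in 7 TBI mice. In E4/Abca1+/- mice the lowest, median and highest level was 3.15, 4.50 and 5.34 CPM in 7 sham mice and 6.79, 11.8 and 16.6 CPM in 8 TBI mice. In both E4 genotypes every TBI mouse lay above every sham mouse, as for 3.76% (E4/Abca1+/+) and 7.36% (E4/Abca1+/-) of all genes. Of all 29 TBI mice, 28 lay above every one of the 29 sham mice, a count not reported here for all genes. The log2 fold changes were 1.01 (SE 0.20, adjusted p = 0.000762) in E3/Abca1+/+, 1.03 (SE 0.16, adjusted p = 0.000167) in E3/Abca1+/-, 1.07 (SE 0.15, adjusted p = 0.000217) in E4/Abca1+/+ and 1.49 (SE 0.19, adjusted p = 1.67e-05) in E4/Abca1+/- mice. Over all groups, Tgfb1 was 1.15 (SE 0.10, adjusted p = 2.89e-15) higher on the log2 scale.

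The other ligands moved little. Tgfb2, the ligand that depends most on betaglycan (chr1:186622792-186705989, minus strand), ranged from 16.5 to 41.1 CPM in sham mice and from 10.2 to 46.0 CPM in TBI mice, and the 2 ranges overlapped in every genotype. Its mean log2 fold change was 0.15 (SE 0.11, adjusted p = 0.245). The lowest level of all 58 mice, 10.2 CPM, was that of E4/Abca1+/- TBI replicate 8, and without this mouse the fold change in E4/Abca1+/- mice was 0.15 (adjusted p = 0.537) in place of 0.02. Tgfb3 (chr12:86056745-86079041, minus strand) ranged from 12.2 to 16.8 CPM in sham mice and from 10.98 to 19.1 CPM in TBI mice. It passed the test only in E3/Abca1+/+ mice, where it rose from 14.1 ± 0.973 to 16.2 ± 1.19 CPM (SD, n = 8 and 8), a log2 fold change of 0.21 (SE 0.07, adjusted p = 0.0270). That call was lost without E3/Abca1+/+ TBI replicate 8, without E3/Abca1+/+ sham replicate 3, by DESeq2's Wald test, in 1 fit over all mice and at equal depth, and in E4/Abca1+/+ mice the fold change was -0.00. Its fold change in E4/Abca1+/- mice was 0.20 (adjusted p = 0.0475) without TBI replicate 4, against 0.13 (SE 0.09, adjusted p = 0.298) with all mice. Over all groups Tgfb3 was higher by 0.12 (SE 0.04, adjusted p = 0.0139), and at equal depth by 0.01 (adjusted p = 0.857). The 3′ end of Tgfb3 overlaps Ttll5 on the opposite strand over 5149 bases, and the sources used here do not state whether reads were counted by strand. Ttll5 had a log2 fold change of -0.14 (SE 0.06, adjusted p = 0.113) in the same mice.

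Tgfb1 made up a larger share of the CPM of the 3 ligands after TBI. In E3/Abca1+/+ mice, the share was 9.38% ± 2.07 in sham and 15.8% ± 6.16 in TBI mice (SD, n = 8 and 8; exact two-sided permutation p = 0.00730). The mean difference was 6.38 percentage points in E3/Abca1+/-, 8.20 in E4/Abca1+/+ and 12.0 in E4/Abca1+/- mice (exact permutation p adjusted over the 4 genotypes, 0.000777 in each). The shares of sham and TBI mice overlapped in E3/Abca1+/+ mice alone. The highest share of all, 34.3%, was in E4/Abca1+/- TBI replicate 8, where Tgfb2 was lowest, and without it the difference in that genotype was 10.04 percentage points (exact permutation p = 0.000583). Per kilobase of transcript, the differences were 9.71, 9.97, 12.7 and 17.7 percentage points in the same order of genotypes.

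**Figure D2:**
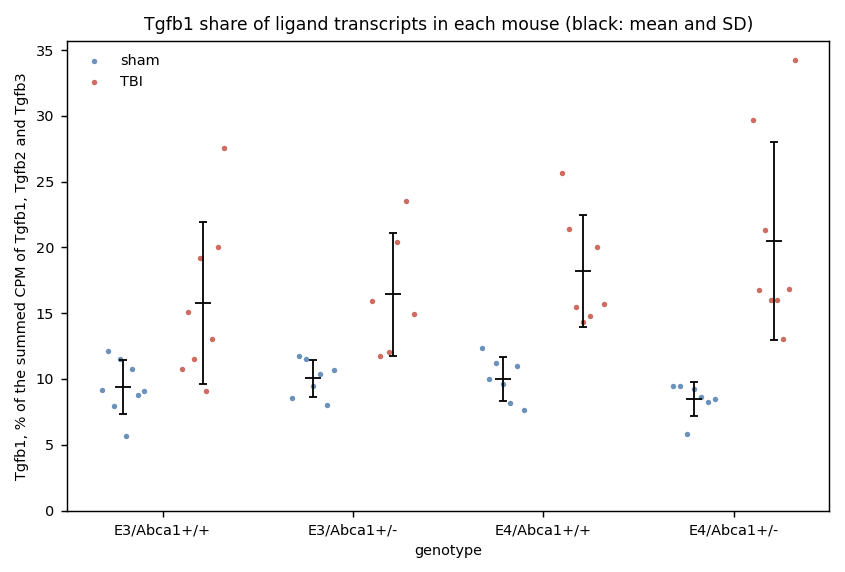
Share of Tgfb1 in the summed CPM of Tgfb1, Tgfb2 and Tgfb3 (percent, vertical axis) in each of the 58 mice by genotype, sham in blue and TBI in red, with each group's mean and SD in black. The means are 8.49% to 10.04% in sham groups and 15.8% to 20.5% in TBI groups.

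Ltbp1, which anchors the latent ligand in the matrix (chr17:75005568-75391767, plus strand), rose in E4/Abca1+/- mice. There it went from 6.58, 7.46 and 8.17 CPM (lowest, median and highest of 7 sham mice) to 8.31, 8.91 and 12.2 CPM in 8 TBI mice, with every TBI mouse above every sham mouse, and a log2 fold change of 0.34 (SE 0.09, adjusted p = 0.00530). The fold change was 0.35 (adjusted p = 0.00640) without replicate 8, and 0.38 (adjusted p = 0.0698) at equal depth. In the other 3 genotypes sham and TBI mice overlapped, and the fold changes of 0.17, 0.13 and 0.27 (E3/Abca1+/+, E3/Abca1+/- and E4/Abca1+/+) did not pass the test, the last passing without E4/Abca1+/+ TBI replicate 2 (0.34, adjusted p = 0.0364). The value in E3/Abca1+/+ mice was 0.11 (adjusted p = 0.509) without TBI replicate 8 and 0.06 (adjusted p = 0.831) at equal depth. Over all groups Ltbp1 was higher by 0.23 (SE 0.05, adjusted p = 6.67e-05) on the log2 scale.

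Both signalling receptors rose with TBI. Tgfbr2, the receptor that binds the ligand first (chr9:116084293-116175360, minus strand), separated injured from sham mice most clearly: all 29 TBI mice lay above all 29 sham mice. In E3/Abca1+/+ mice the lowest, median and highest level was 18.5, 24.7 and 25.9 CPM in 8 sham mice and 39.4, 42.8 and 67.2 CPM in 8 TBI mice. In E3/Abca1+/- mice the lowest, median and highest level was 21.9, 23.9 and 26.5 CPM in 7 sham mice and 32.4, 41.6 and 48.1 CPM in 6 TBI mice. The lowest injured mouse lay above the highest sham mouse in both genotypes. In E4/Abca1+/+ mice the lowest, median and highest level was 22.4, 24.8 and 27.3 CPM in 7 sham mice and 33.3, 43.9 and 65.4 CPM in 7 TBI mice. In E4/Abca1+/- mice the lowest, median and highest level was 20.5, 22.6 and 27.7 CPM in 7 sham mice and 34.1, 50.5 and 63.1 CPM in 8 TBI mice. The E4/Abca1+/- TBI mice had the highest median of the 4 TBI groups, with ranges that overlapped those of the other 3. The log2 fold changes were 0.97 (SE 0.10, adjusted p = 7.46e-07) in E3/Abca1+/+, 0.79 (SE 0.08, adjusted p = 2.57e-06) in E3/Abca1+/-, 0.83 (SE 0.13, adjusted p = 0.000330) in E4/Abca1+/+ and 1.15 (SE 0.11, adjusted p = 1.48e-06) in E4/Abca1+/- mice.

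Tgfbr1, the receptor kinase that phosphorylates Smad2 and Smad3 (chr4:47353222-47414931, plus strand), stood at a higher level per kilobase than Tgfbr2 in sham and TBI mice (5.80 and 9.87 against 2.91 and 5.66 CPM per kilobase). In E3/Abca1+/+ mice the lowest, median and highest level was 30.3, 36.1 and 43.8 CPM in 8 sham mice and 51.7, 59.4 and 81.9 CPM in 8 TBI mice. In E3/Abca1+/- mice the lowest, median and highest level was 29.5, 37.1 and 41.0 CPM in 7 sham mice and 45.9, 55.5 and 63.6 CPM in 6 TBI mice. The groups did not overlap in either genotype. In E4/Abca1+/+ mice the lowest, median and highest level was 29.1, 39.4 and 45.3 CPM in 7 sham mice and 40.4, 53.4 and 83.5 CPM in 7 TBI mice. In E4/Abca1+/- mice the lowest, median and highest level was 29.8, 39.8 and 43.2 CPM in 7 sham mice and 48.1, 70.7 and 103 CPM in 8 TBI mice. Only in E4/Abca1+/+ mice did the lowest injured mouse reach into the sham range. The log2 fold changes were 0.83 (SE 0.10, adjusted p = 2.94e-06) in E3/Abca1+/+, 0.57 (SE 0.08, adjusted p = 7.12e-05) in E3/Abca1+/-, 0.57 (SE 0.13, adjusted p = 0.00641) in E4/Abca1+/+ and 0.96 (SE 0.14, adjusted p = 4.08e-05) in E4/Abca1+/- mice. Without E4/Abca1+/- TBI replicate 8, the fold changes in that genotype were 0.91 (adjusted p = 6.23e-05) for Tgfbr1 and 1.11 (adjusted p = 2.55e-06) for Tgfbr2.

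Tgfbr3, the co-receptor betaglycan (chr5:107106570-107289629, minus strand), passed the test in none of the 4 genotypes. Its levels ran from 12.5 to 21.9 CPM in sham and from 10.03 to 37.1 CPM in TBI mice, and the groups overlapped in every genotype. The fold changes were 0.25, 0.27, 0.28 and 0.07 on the log2 scale in E3/Abca1+/+, E3/Abca1+/-, E4/Abca1+/+ and E4/Abca1+/- mice, and over all groups Tgfbr3 was higher by 0.22 (SE 0.08, adjusted p = 0.0150). These values rested in part on single mice. The highest level, 37.1 CPM, was in E3/Abca1+/+ TBI replicate 8, without which the fold change in that genotype was 0.10 (adjusted p = 0.422) and that over all groups 0.18 (adjusted p = 0.0316). The lowest level in a TBI mouse, 10.03 CPM, was in E3/Abca1+/- TBI replicate 1, the mouse with the lowest fibroblast and macrophage markers of its group (189 and 6.27 CPM). Without it the log2 fold change of Tgfbr3 was 0.42 (adjusted p = 0.00686) and that of Tgfb2 0.40 (adjusted p = 0.0442) in E3/Abca1+/- mice, both past the threshold. The fold change of Tgfbr3 in E4/Abca1+/- mice without replicate 8 was 0.14 (adjusted p = 0.364).

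Neither Smad passed the test for TBI in any genotype. Smad3, which carries the signal to the nucleus (chr9:63646767-63757994, minus strand), had the highest level per kilobase of the 10 genes and measured 104 to 143 CPM in sham and 104 to 145 CPM in TBI mice. Its mean log2 fold change was -0.06 (SE 0.03, adjusted p = 0.0854), with values of -0.05, -0.12, -0.02 and -0.06 in the 4 genotypes, and past the threshold with DESeq2's size factors (adjusted p = 0.0371) and DESeq2's Wald test (adjusted p = 0.0339), and without E4/Abca1+/- TBI replicate 8 (adjusted p = 0.0448). Smad7, the inhibitory Smad (chromosome 18), ran from 14.9 to 26.2 CPM in sham and from 14.5 to 26.4 CPM in TBI mice, with a mean log2 fold change of -0.04 (SE 0.04, adjusted p = 0.488). The sham and TBI mice overlapped for both genes in every genotype.

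Tgfbi, a secreted matrix protein induced by TGF-beta (chr13:56609586-56639358, plus strand), had the largest fold changes of the 10 and the widest spread. In E3/Abca1+/+ mice the lowest, median and highest level was 2.48, 3.63 and 5.45 CPM in 8 sham mice and 4.02, 8.17 and 19.8 CPM in 8 TBI mice. In E3/Abca1+/- mice the lowest, median and highest level was 2.78, 3.36 and 3.90 CPM in 7 sham mice and 3.81, 8.57 and 16.1 CPM in 6 TBI mice. The injured mice were widely spread in each group, and the lowest of them lay within the range of the sham mice. In E4/Abca1+/+ mice the lowest, median and highest level was 2.73, 3.54 and 5.39 CPM in 7 sham mice and 3.59, 6.40 and 20.4 CPM in 7 TBI mice. In E4/Abca1+/- mice the lowest, median and highest level was 2.67, 3.39 and 5.01 CPM in 7 sham mice and 3.92, 10.6 and 23.5 CPM in 8 TBI mice. Overlap with the sham mice occurred in all 4 genotypes, although 23 of the 29 TBI mice lay above every sham mouse. The like count for all genes is not reported here. The log2 fold changes were 1.44 (SE 0.28, adjusted p = 0.000738) in E3/Abca1+/+, 1.46 (SE 0.25, adjusted p = 0.000416) in E3/Abca1+/-, 1.14 (SE 0.33, adjusted p = 0.0260) in E4/Abca1+/+ and 1.73 (SE 0.31, adjusted p = 0.000313) in E4/Abca1+/- mice. In E4/Abca1+/+ mice the call was lost when sham replicate 1, 3 or 6 or TBI replicate 7 was left out. With each mouse of the genotype left out in turn, the fold change ran from 0.83 to 1.29 and the adjusted p from 0.00566 to 0.0630.

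**Figure D3:**
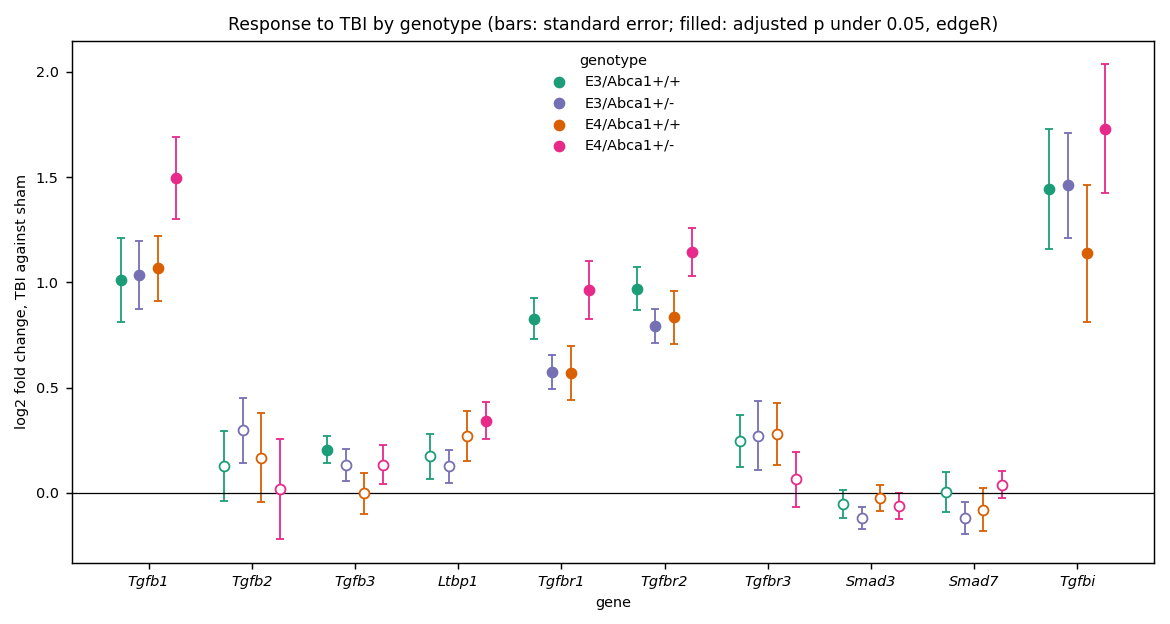
Log2 fold change of TBI against sham (vertical axis) for the 10 genes in each of the 4 genotypes, from edgeR, with standard errors as bars. Tgfb1, Tgfbr1, Tgfbr2 and Tgfbi lie between 0.57 and 1.73 in all 4 genotypes, and the other 6 genes between -0.12 and 0.34.

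Per kilobase of transcript, the scale on which levels of different genes can be compared, the order of the genes shifted with TBI. In sham mice the mean levels were 24.6 CPM per kilobase for Smad3, 5.80 for Tgfbr1, 5.65 for Tgfb2, 4.35 for Smad7, 4.18 for Tgfb3, 2.91 for Tgfbr2, 2.86 for Tgfbr3, 2.06 for Tgfb1, 1.35 for Tgfbi and 1.24 for Ltbp1 (n = 29). Of the neighbours in this order, Tgfbr1 and Tgfb2, Smad7 and Tgfb3, Tgfbr2 and Tgfbr3, and Tgfbi and Ltbp1 did not differ by more than their SDs over mice. In TBI mice the levels were 23.5 for Smad3, 9.87 for Tgfbr1, 6.25 for Tgfb2, 5.66 for Tgfbr2, 4.68 for Tgfb1, 4.55 for Tgfb3, 4.26 for Smad7, 3.74 for Tgfbi, 3.31 for Tgfbr3 and 1.43 for Ltbp1 (n = 29), and between Tgfb2 (6.25) and Tgfbr3 no neighbours differed by more than their SDs. In sham mice Tgfb1 was the lowest of the 3 ligands per kilobase, and in TBI mice Tgfb1 and Tgfb3 did not differ beyond their spread.

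Across the 8 groups, the 4 TBI groups ranked above the 4 sham groups in mean CPM of Tgfb1, Tgfbr1, Tgfbr2 and Tgfbi. The step from the lowest TBI group to the highest sham group exceeded both SDs for Tgfb1, Tgfbr1 and Tgfbr2 but not for Tgfbi. E4/Abca1+/- TBI mice had the highest mean of all 8 groups for each of the 4 genes, at 12.0 ± 3.87, 73.7 ± 17.8, 50.9 ± 9.98 and 11.9 ± 6.44 CPM (SD, n = 8), although the next TBI group lay within their spread each time.

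Of the 10 genes, Smad7 alone passed edgeR's test for Abca1 genotype and was lower with 1 functional copy of Abca1. Its means were 19.8 ± 2.90 and 17.0 ± 1.92 CPM in E3 sham mice (Abca1+/+, then Abca1+/-), 20.0 ± 2.75 and 15.6 ± 1.08 in E3 TBI mice, 22.2 ± 2.93 and 17.1 ± 1.15 in E4 sham mice, and 20.8 ± 3.17 and 17.7 ± 1.42 in E4 TBI mice (SD, n = 6 to 8). None of the 28 Abca1+/- mice reached the mean of the 30 Abca1+/+ mice, 20.7 CPM, and 9 lay below every one of them. The mean log2 fold change was -0.30 (SE 0.04, adjusted p = 9.63e-07), where 17.9% of all genes passed in either direction (8.39% lower), and 4 of the 10 against 30.2% of all genes were at an unadjusted p under 0.05. It was -0.31 (adjusted p = 0.000100) with all libraries thinned to equal depth, -0.30 (adjusted p = 1.35e-06) without E4/Abca1+/- TBI replicate 8 and -0.30 (adjusted p = 1.47e-06) without E3/Abca1+/+ TBI replicate 8. By comparison, the fold change was -0.36 (SE 0.08, adjusted p = 0.0418) in E4 sham mice, where 0.87% of all genes passed and 0.606% were lower, and -0.38 (adjusted p = 0.123) at equal depth. It was -0.24 (SE 0.09, adjusted p = 0.173) in E3 sham, -0.36 (SE 0.09, adjusted p = 0.115) in E3 TBI and -0.24 (SE 0.09, adjusted p = 0.158) in E4 TBI mice.

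Depth moved with Abca1 genotype. In the 7 Abca1+/- libraries no deeper than the deepest Abca1+/+ library, Smad7 was 18.1 CPM ± 1.59, in the 21 deeper ones 16.5 ± 1.35, and in the 30 Abca1+/+ libraries 20.7 ± 2.93 (SD). The split by depth is also one by group and sex, since 5 of the 7 shallower libraries were of E4/Abca1+/- TBI mice and 6 of the 7 of females, against 8 of the 21 deeper ones. Among E4/Abca1+/- TBI mice alone, Smad7 was 17.8 to 19.3 CPM in the 5 shallower and 15.5 to 18.0 CPM in the 3 deeper libraries, the latter all of males. The part of depth in the difference was not tested beyond these values and the thinned counts. Of 7 endothelial and 5 mural markers, Pecam1, Flt1, Cdh5, Rgs5 and Myh11 were lower in Abca1+/- mice over all groups as well, where 8.39% of all genes were. The other markers of these lists are not reported here. Summed endothelial markers averaged 185 and 188 CPM in E3 sham (Abca1+/+, then Abca1+/-) and 214 and 206 CPM in E3 TBI mice. In E4 mice the averages were 196 and 169 CPM in sham and 210 and 192 CPM in TBI mice. The part of these markers in the result was not tested.

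**Figure D4:**
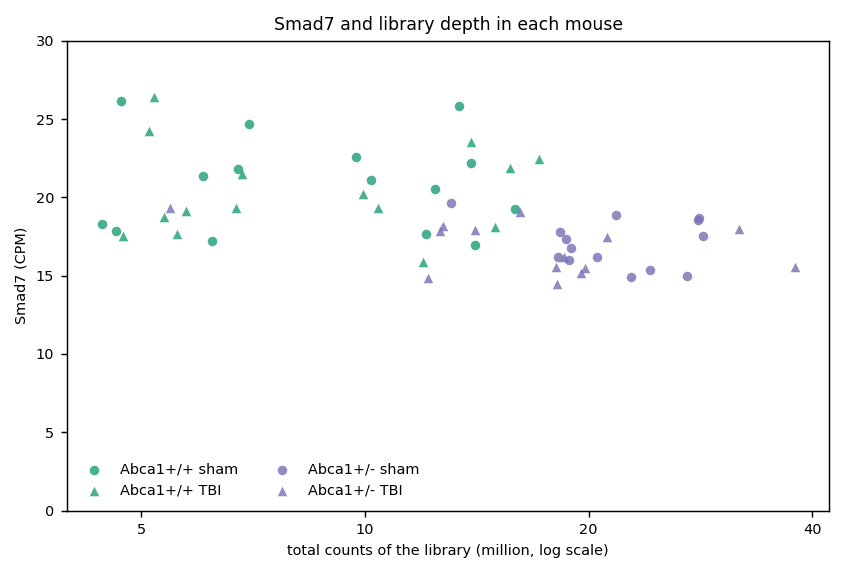
Smad7 (CPM, vertical axis) against the library's total counts (horizontal axis, log scale) in each of the 58 mice, with green points for Abca1+/+ and purple points for Abca1+/- mice, circles for sham and triangles for TBI. The 28 Abca1+/- mice lie between 14.5 and 19.6 CPM and the 30 Abca1+/+ mice between 15.9 and 26.4 CPM, while most Abca1+/- libraries are deeper than every Abca1+/+ library.

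Tgfbr3 was near the threshold in the same contrast. Its mean log2 fold change in Abca1+/- mice was -0.21 (SE 0.08, adjusted p = 0.0506), past the threshold with DESeq2's size factors (adjusted p = 0.0458), DESeq2's Wald test (adjusted p = 0.0361) and sex as a covariate (adjusted p = 0.0404). Without E4/Abca1+/- TBI replicate 8 it was -0.19 (adjusted p = 0.0676), and without E3/Abca1+/+ TBI replicate 8 -0.17 (adjusted p = 0.0883). Smad3 was -0.08 (SE 0.03, adjusted p = 0.0646) in the same contrast, and -0.09 (adjusted p = 0.0351) without the first of these mice. The fold changes of Tgfbr3 were -0.19 in E3 sham, -0.17 in E3 TBI, -0.13 in E4 sham and -0.35 in E4 TBI mice, none of which passed the test. In E3 mice 0 of the 10 genes passed between Abca1 genotypes, sham or TBI, where 2.27% and 0.0923% of all genes did, with 2 of the 10 at an unadjusted p under 0.05 in each, against 16.4% and 9.18% of all genes. DESeq2's Wald test called 0 in E3 sham mice and 1, Smad7, in E3 TBI mice. In E4 TBI mice 0 passed by edgeR and DESeq2, against 1.36% of all genes, with 3 at an unadjusted p under 0.05, against 18.3%.

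Between APOE4 and APOE3 mice, none of the 10 genes passed edgeR's test within any injury and Abca1 group. The shares of all genes that passed were 0.356% in Abca1+/+ sham, 0.211% in Abca1+/+ TBI, 5.11% in Abca1+/- sham and 2.74% in Abca1+/- TBI mice, and the genes of the 10 at an unadjusted p under 0.05 numbered 0, 1, 1 and 3, against 8.81%, 7.18%, 23% and 19.1% of all genes. DESeq2's Wald test called Ltbp1 in Abca1+/- sham mice and Tgfbr1 in Abca1+/- TBI mice, and 0 in both Abca1+/+ comparisons. Ltbp1 was -0.24 (SE 0.07, adjusted p = 0.0548) in E4 against E3 mice of the first group. In Abca1+/- TBI mice, Tgfbr1 was 0.43 (SE 0.14, adjusted p = 0.109) and Tgfbr2 0.29 (SE 0.13, adjusted p = 0.211) in E4 against E3, and 0.37 (adjusted p = 0.155) and 0.26 (adjusted p = 0.291) without E4/Abca1+/- TBI replicate 8. Over all groups 0 passed, against 15% of all genes, with 2 at an unadjusted p under 0.05, against 28.2%, and 0 by DESeq2.

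Whether the response to TBI differed between genotypes was tested by interaction terms, and no gene of the 15171 passed by edgeR in any of the 4. For APOE within Abca1+/- mice, the log2 response of Tgfbr1 was larger in E4 than in E3 by 0.39 (SE 0.17, unadjusted p = 0.0337, adjusted p = 0.770) and that of Tgfbr2 by 0.35 (SE 0.15, unadjusted p = 0.0253, adjusted p = 0.753). These were the only ones of the 10 at an unadjusted p under 0.05, which 6.36% of all genes reached, and they were 0.33 and 0.31 without E4/Abca1+/- TBI replicate 8. For Abca1 within E4 mice the differences were 0.40 (unadjusted p = 0.0573) for Tgfbr1 and 0.31 (unadjusted p = 0.0904) for Tgfbr2. None of the 10 reached an unadjusted p under 0.05 in the interaction with Abca1 in E3 mice (2.16% of all genes) or E4 mice (4.81%), or in that with APOE in Abca1+/+ mice (2.22%). DESeq2's Wald test called 0 of the 10 in every interaction.

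The 4 genes that rose had higher means in injured females than in injured males, but the difference did not pass the test after adjustment. Tgfbr2 was 41.9 ± 7.23 CPM in 15 male and 51.1 ± 9.995 CPM in 14 female TBI mice (SD), and 24.7 and 22.9 CPM in sham males and females. Tgfbr1 was 55.4 ± 9.57 CPM in 15 male and 71.7 ± 14.8 CPM in 14 female TBI mice, Tgfb1 8.72 ± 2.79 CPM in 15 male and 11.7 ± 3.16 CPM in 14 female TBI mice and Tgfbi 8.16 ± 4.27 CPM in 15 male and 12.3 ± 6.00 CPM in 14 female TBI mice. In sham mice the means of males and females were 36.5 and 38.0 CPM for Tgfbr1, 4.45 and 4.53 CPM for Tgfb1 and 3.66 and 3.66 CPM for Tgfbi. The difference of the response, male minus female on the log2 scale, was -0.39 (SE 0.10, unadjusted p = 0.000314, adjusted p = 0.316) for Tgfbr2, -0.31 (SE 0.11, unadjusted p = 0.00472, adjusted p = 0.405) for Tgfbr1, -0.42 (SE 0.18, unadjusted p = 0.0205, adjusted p = 0.537) for Tgfb1 and -0.69 (SE 0.30, unadjusted p = 0.0270, adjusted p = 0.579) for Tgfbi. None of the 15171 genes passed after adjustment, and 7.47% were at an unadjusted p under 0.05, as were these 4 of the 10. Without E4/Abca1+/- TBI replicate 8, a female, the differences were -0.38, -0.29, -0.41 and -0.77 in the same order.

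Among the 29 injured mice, levels of these genes followed the level of cell type markers. Each gene's log2(CPM + 1) and each list's score, the mean log2(CPM + 1) of its markers, were taken relative to the mean of the mouse's group, and 40 pairs were tested, 10 genes against 4 lists. At an adjusted p of 0.05 over the 40 pairs, 18 passed by Pearson's r, all of them positive. They were 5 of the 10 genes with microglia markers, where 14.1% of all genes had a positive r with a permutation p as small (0.0214 or under), 6 with astrocyte (15.9% of all genes), 3 with endothelial (6.33%) and 4 with fibroblast markers (8.2%). Smad3, Tgfb2, Tgfb3 and Smad7 passed with none. By Spearman's rho, Ltbp1 did not pass with microglia, astrocyte or endothelial markers (adjusted permutation p = 0.0714, 0.0714 and 0.125). Nor did Tgfbr2 with endothelial (0.146) or Tgfbr3 with astrocyte markers (0.0659).

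With the microglia score, Tgfbr2 gave r = 0.917 (permutation p = 1e-05, adjusted p = 5.71e-05) and rho = 0.927 (permutation p = 1e-05, adjusted p = 6.67e-05). The value was 0.884 with the 2 mice of most extreme score left out, 0.974 in 15 Abca1+/+ and 0.829 in 14 Abca1+/- mice, and 0.875 in males and 0.899 in females. Tgfbr1 gave r = 0.881 (permutation p = 1e-05, adjusted p = 5.71e-05) and rho = 0.863 (permutation p = 1e-05, adjusted p = 6.67e-05), and r was 0.852 with the 2 mice of most extreme score left out, 0.868 in 15 Abca1+/+ and 0.905 in 14 Abca1+/- mice, and 0.765 in males and 0.890 in females. Tgfb1 gave r = 0.852 (permutation p = 1e-05, adjusted p = 5.71e-05) and rho = 0.869 (permutation p = 1e-05, adjusted p = 6.67e-05), and r was 0.825 with the 2 mice of most extreme score left out, 0.854 in 15 Abca1+/+ and 0.852 in 14 Abca1+/- mice, and 0.790 in males and 0.816 in females. Injured mice with a higher microglia score had more RNA of the ligand and of both signalling receptors, in either Abca1 genotype and either sex. With the astrocyte score r was 0.882, 0.763 and 0.801 for Tgfbr2, Tgfbr1 and Tgfb1 (adjusted permutation p = 5.71e-05, 1e-04 and 5.71e-05), and whether the scores differ in this was not tested. Leaving out E4/Abca1+/- TBI replicate 8, which had the highest microglia markers, gave r = 0.919, 0.870 and 0.849 for Tgfbr2, Tgfbr1 and Tgfb1. A permutation p of 1e-05 is the smallest that 100000 resamples can give.

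Tgfbi followed both the astrocyte and the microglia score. With astrocyte markers it gave r = 0.909 (permutation p = 1e-05, adjusted p = 5.71e-05) and rho = 0.911 (permutation p = 1e-05, adjusted p = 6.67e-05), and r was 0.879 with the 2 mice of most extreme score left out, 0.941 in 15 Abca1+/+ and 0.873 in 14 Abca1+/- mice, and 0.874 in males and 0.916 in females. With microglia markers r was 0.793 and rho 0.739, with 0.936 in Abca1+/+ and 0.603 in Abca1+/- mice (adjusted permutation p = 5.71e-05, 0.000200 for rho). Without E4/Abca1+/- TBI replicate 8, where Tgfbi was 7.67 CPM, r was 0.882 with microglia and 0.910 with astrocyte markers, and the difference between the lists was not tested. Its r with fibroblast markers was 0.606 (adjusted permutation p = 0.00287). Tgfbr3 followed the fibroblast score, with r = 0.812 (permutation p = 3e-05, adjusted p = 0.000133) and rho = 0.797 (permutation p = 3e-05, adjusted p = 0.000171), and r was 0.733 with the 2 mice of most extreme score left out, 0.820 in 15 Abca1+/+ and 0.811 in 14 Abca1+/- mice, and 0.792 in males and 0.883 in females. Without E3/Abca1+/+ TBI replicate 8, the mouse with the highest fibroblast markers, r was 0.765, and without E4/Abca1+/- TBI replicate 8, the mouse with the lowest, 0.782. The r of Tgfbr3 was 0.653 with endothelial (adjusted permutation p = 0.000960), 0.504 with astrocyte (adjusted permutation p = 0.0201) and 0.324 with microglia markers (adjusted permutation p = 0.157). The r of Tgfbr2 with endothelial markers, 0.452, was 0.120 without the 2 farthest mice and so rests on them, and that of Ltbp1 with microglia markers, 0.484, was 0.313.

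**Figure D5:**
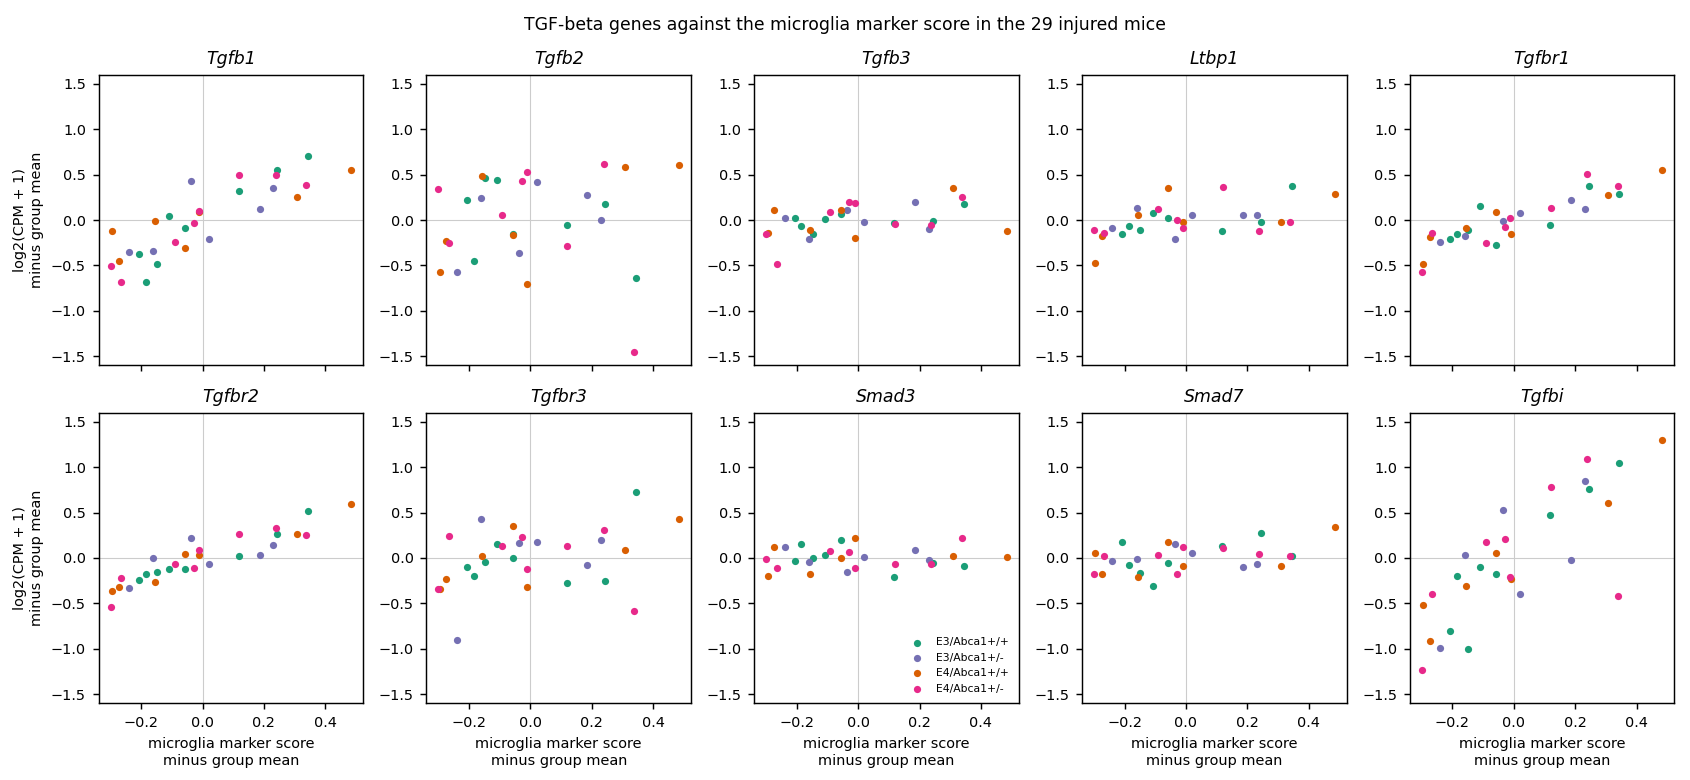
Log2(CPM + 1) of TGF-beta genes (vertical axes) against the microglia marker score (mean log2(CPM + 1) of 8 markers, horizontal axis) in each of the 29 TBI mice, both minus the mean of the mouse's group, with points coloured by genotype. Tgfb1, Tgfbr1, Tgfbr2 and Tgfbi increase with the score (r = 0.852, 0.881, 0.917 and 0.793), whereas Smad3 shows no such slope.

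The genes also varied with each other. Of 45 pairs among the 10, 12 passed by r at an adjusted permutation p of 0.05 in the injured mice. All 12 were positive, with r of 0.492 or more, which 3.77% of all pairs of genes reached. By rho, Ltbp1 with Tgfbr2 and with Tgfbi did not pass (adjusted permutation p = 0.138 and 0.0854). Nor did Tgfbr2 with Tgfbr3 and with Smad7 (0.0955 and 0.0854). The closest pairs were Tgfbr2 with Tgfbi (r = 0.873, rho = 0.829), Tgfbr1 with Tgfbr2 (r = 0.868, rho = 0.836) and Tgfb1 with Tgfbr2 (r = 0.839, rho = 0.850), with adjusted permutation p-values of 0.000112 in each. Without the 2 farthest mice these were 0.826, 0.832 and 0.830, in Abca1+/+ mice 0.919, 0.880 and 0.805, and in Abca1+/- mice 0.814, 0.859 and 0.889.

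Among the other genes of the table, those whose log2(CPM + 1) was most like each of the 10 over the 58 mice, after each group's mean was taken away, are given as a description. Among the nearest to Tgfb1 were the RNA editing enzyme Apobec1 (r = 0.815) and the lysosomal protease Ctsd (r = 0.813). Nearest to Tgfbr2 were Man2b1 (r = 0.877), Laptm5 (r = 0.867) and Gusb (r = 0.856). Man2b1 and Gusb encode lysosomal glycosidases and Laptm5 a lysosomal membrane protein. Tgfbr1 was nearest to Ptbp3 (r = 0.886), Adam9 (r = 0.836) and Reep3 (r = 0.833). Tgfbi was nearest to ceruloplasmin, Cp (r = 0.885), podoplanin, Pdpn (r = 0.868), and Plscr2 (r = 0.858). Tgfbr3 was nearest to Wfikkn2 (r = 0.809), the ligand Bmp6 (r = 0.798) and the protease inhibitor Timp3 (r = 0.795). Tgfb2 had the closest neighbours of all, with the neuropeptide Y receptor Npy2r (r = 0.945), Pcdh20 (r = 0.937) and Myo5b (r = 0.932). Smad7 was nearest to Csrnp1 (r = 0.667) and to Klf10 (r = 0.617), itself a gene that TGF-beta induces. The nearest genes were less alike for Smad3 (Arhgef7, r = 0.628), Ltbp1 (Aox1, r = 0.622) and Tgfb3 (Lrrc25, r = 0.543). Depth and dissection are shared by the genes of a mouse in all of these values.

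The rest of the pathway was described over lists of genes by role, with TBI against sham over all 58 mice, where 29% of all genes were higher and 24.3% lower. These 4403 and 3685 genes became 4074 and 4147 with DESeq2's size factors and 3426 and 3426 at equal depth. Of 11 measured genes of latency and activation, 7 were higher and 1 lower, with a median log2 fold change of 0.24. Nrros, which holds latent TGF-beta1 on microglia, rose from 6.70 ± 1.36 to 11.004 ± 2.54 CPM (SD, n = 29 and 29), by 0.72 on the log2 scale (SE 0.08, adjusted p = 7.43e-12), and the activator thrombospondin 1, Thbs1, by 1.14 (adjusted p = 1.07e-07). The integrin subunit Itgav was lower (log2 fold change -0.18, adjusted p = 2.48e-05). Of 8 other ligands of the family, 5 were higher and 1 lower (median 0.22), Bmp6 with a log2 fold change of 0.85 (adjusted p = 2.42e-07) and Inhba, an activin subunit, of -0.82 (adjusted p = 1.18e-06).

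Other receptors and Smads shifted less. Of 10 receptors of activins and BMPs, 4 were higher and 2 lower (median 0.07), where 29% of all genes were higher and 24.3% lower. Bmpr1b, a BMP receptor kinase, had a log2 fold change of 0.47 (adjusted p = 7.71e-14) and Acvr1b, an activin receptor kinase, of -0.13 (adjusted p = 3.25e-07). Of 6 other Smads, 2 were higher, against 29% of all genes. They were Smad5 by 0.23 (adjusted p = 6.18e-06) and Smad1 by 0.19 (adjusted p = 6.44e-06), both of the BMP arm. Smad4, the shared partner, had a fold change of -0.00 (adjusted p = 0.917). Of 16 inhibitors and modulators, 5 were higher and 4 lower (median 0.02), near the shares of all genes. Those with the smallest p were the corepressor Tgif1 (log2 fold change 2.05, adjusted p = 8.51e-21), the ligand-binding proteoglycan Bgn (0.82, adjusted p = 2.20e-10) and the Smad anchor Zfyve9 (-0.24, adjusted p = 2.35e-09).

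Among 19 target genes, 13 were higher, 5 lower and 1 did not pass (median 0.52), against 29% higher and 24.3% lower of all genes. Timp1, an inhibitor of matrix proteases, went from 0.518 ± 0.331 to 7.66 ± 5.52 CPM (log2 fold change 3.86, adjusted p = 1.48e-17). Id3, an inhibitor of DNA binding, rose by 1.00 on the log2 scale (adjusted p = 6.64e-20). The 5 that were lower were Junb, Klf10, Cdkn1a, Id2 and Tsc22d1, and the smooth muscle actin gene Acta2 did not pass (0.24, adjusted p = 0.0922). Col1a1 and Col1a2 of this list and Dcn of the inhibitors are fibroblast markers as well. With Abca1 genotype, 1 of the 11 genes of latency and activation (Itgav), 2 of the 10 receptors, 3 of the 16 inhibitors and modulators and 0 of the other lists were lower in Abca1+/- mice, where 8.39% of all genes were, and the targets Id1, Id3 and Tsc22d1, 3 of 19, were higher, where 9.49% of all genes were.

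Markers of several cell types passed for TBI beside these lists, over all 58 mice, where 29% of all genes were higher and 24.3% lower. All 7 astrocyte and all 7 fibroblast markers were higher, with sums of 4743 to 6172 and 109 to 225 CPM in sham and 6005 to 10085 and 94.5 to 463 CPM in TBI mice. Of 6 macrophage markers 5 were higher, with sums of 3.99 to 21.9 CPM in sham and 6.27 to 44.1 CPM in TBI mice, and Ccr2 and Ms4a7 were at 0 in some sham mice. Of 7 endothelial markers 5 were higher, with sums of 163 to 219 and 152 to 305 CPM, and of 8 neuron markers 6 were lower and 1 higher. Of 5 mural markers 1 was higher, of 5 oligodendrocyte markers 2 and of 4 subcortical markers 2, against 29% of all genes. Apart from the values given here, their part in the changes of the TGF-beta genes was not tested.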

How the data were processed

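The deposited file is a table of raw read counts per gene for 58 mice, 1 library each; per the submitters' processing notes, the authors aligned with Subread 1.5.0 to mm10 and counted with featureCounts. Strand use and annotation are not given in the sources used here. Counts of 15171 genes were used as deposited, without 2 empty lines and with 23 gene symbols restored from calendar dates. TMM factors came from all 58 libraries (0.954 to 1.04). edgeR 4.0.16's quasi-likelihood test was fitted to the groups compared, with Benjamini-Hochberg adjustment over all genes and a threshold of 0.05, in R 4.3.3. The filter on low counts (filterByExpr) removed no gene. CPM were divided by exon length for levels per kilobase (length known for 94.4% of genes). No replicate numbers are in the labels, so replicates are numbered in accession order, and whether mice shared litters is not stated. Exact permutation tests went through every arrangement of the mice compared. Relations over mice used 100000 resamples within groups and a pseudocount of 1, in NumPy 2.4.6 with ranks from SciPy 1.17.1. Each statistic was tested on simulated data.

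Genes named besides the 10 are those nearest to each by correlation and, for each list by role, up to 3 with the smallest p and the 1 with the largest p for TBI over all mice; some genes that this rule names are not reported here. The targets that were lower, the genes that passed for Abca1 genotype and Ttll5 were named after their values were seen. Alternatives were DESeq2 1.42.0's size factors and Wald test, no filter, at least 1 CPM in 6 mice and sex as a covariate. Others were counts thinned to 4421308, 1 fit over all mice and each mouse left out. Added after seeing the data were TMM factors of the compared mice alone and leaving out the libraries that stood apart. A split of Abca1+/- libraries at the depth of the deepest Abca1+/+ library was also added then. That split did not match depth between the genotypes. Counts limit precision: the lowest count of a member was 13. The 10 genes and the lists were chosen with earlier results of these data known.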

Additional observations from a re-analysis of the deposited data

Results flagged for a closer look

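In 6 of 80 gene-by-group sets of mice, 1 mouse lay far from the others of its group by Dixon's test. Chance alone marks about 1 in 20 such sets.

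Tgfbr3 was 37.1 CPM in E3/Abca1+/+ TBI replicate 8, against 18.0 to 24.6 CPM in the other 7 mice, and Ltbp1 was 13.6 CPM in the same mouse, against 9.14 to 10.9 CPM. This is the mouse with the highest fibroblast and endothelial markers, and the part of those cells in its values was not tested. In E4/Abca1+/- sham replicate 1, Tgfb2 was 16.5 CPM, against 29.5 to 37.7 CPM in the other mice of the group. Tgfbr1 was 29.1 CPM in E4/Abca1+/+ sham replicate 4, where the other mice had 38.3 to 45.3 CPM. Tgfbr2 was 18.5 CPM in E3/Abca1+/+ sham replicate 5, below the 23.5 to 25.9 CPM of its group, and 27.7 CPM in E4/Abca1+/- sham replicate 2, above the 20.5 to 23.5 CPM of its group.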

How the results depend on the processing

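The calls of Tgfb1, Tgfbr1, Tgfbr2 and Tgfbi after TBI held under every alternative run in all 4 genotypes, each of the 8 for a genotype, except that Tgfbi in E4/Abca1+/+ mice was lost when any of 4 mice was left out. Both filters removed 0 genes, so the alternatives that changed the filter repeated the main fit and could not change a call. Counts of members called changed as follows. For TBI, E3/Abca1+/+ mice had 4 (against 5) by the Wald test, thinned and in 1 fit over all mice, each without Tgfb3, and E4/Abca1+/- mice 4 (against 5) thinned, without Ltbp1. Over all groups TBI had 8 (against 7) with DESeq2 size factors, by the Wald test and without E4/Abca1+/- TBI replicate 8, each with Smad3 added, and 6 thinned, without Tgfb3. For genotype, DESeq2's Wald test gave 1 (against 0) for APOE in Abca1+/- sham, APOE in Abca1+/- TBI and Abca1 in E3 TBI mice, and 3 (against 1) for Abca1 over all groups, where DESeq2's size factors, sex as a covariate and leaving out E4/Abca1+/- TBI replicate 8 gave 2. Thinned counts gave 0 (against 1) for Abca1 in E4 sham mice. The cause was not tested.

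Log2 fold changes that changed sign were near 0 at the main settings, except that of Tgfb3 in E3/Abca1+/- mice (0.13, SE 0.07). Those for TBI were Tgfb3 in E3/Abca1+/- mice (-0.10 thinned), Smad7 in E3/Abca1+/+ mice (-0.00795 with DESeq2 size factors, -0.00962 with TMM factors of the compared mice, -0.00762 by the Wald test, -0.0296 to 0.0787 leaving out each mouse), Tgfb2 in E4/Abca1+/- mice (-0.00281, -0.00709 and -0.00378 in the same order, -0.0936 to 0.153 leaving out each mouse), Smad7 in E4/Abca1+/- mice (-0.0263 thinned), Tgfb3 in E4/Abca1+/+ mice (0.0011 with sex, -0.0730 to 0.0482 leaving out each mouse) and Smad3 there (-0.0601 to 0.00878). For genotype over all groups they were Tgfb3 for APOE4 (0.00141 by the Wald test, 0.00651 without E3/Abca1+/+ and -0.0113 without E4/Abca1+/- TBI replicate 8) and for Abca1 (-0.00196 without E4/Abca1+/- and 0.0158 without E3/Abca1+/+ TBI replicate 8), Tgfbr2 for Abca1 (0.0032 thinned) and Tgfbi for Abca1 (-0.00182 by the Wald test).

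Over all genes, calls moved by more than 1.5 times for TBI in E3/Abca1+/- mice (3601, thinned 2348) and, with the Wald test and thinned counts, for Abca1 in E3 sham (345; 730 and 143), E3 TBI (14; 169 and 4, and 28 with DESeq2 size factors, 27 with TMM of the compared mice and 44 with sex), E4 sham (132; 447 and 62) and E4 TBI (206; 717 and 92). The same held for APOE in Abca1+/+ sham (54; 118 by the Wald test), Abca1+/+ TBI (32; 69 and 20), Abca1+/- sham (775; 1369 and 200) and Abca1+/- TBI (416; 919 and 213), and thinned for Abca1 (2712; 1733) and APOE (2279; 1333) over all groups. The Wald test called 3 genes, against 0, for the interaction with APOE in Abca1+/- mice and 1, against 0, for that of injury with sex. In E4 TBI mice, 111 genes were higher and 95 lower with Abca1+/-, but 88 and 116 with DESeq2 size factors and 83 and 128 with TMM of the compared mice, and for APOE in Abca1+/- TBI mice 205 and 211 became 167 and 273. No paired analysis was possible because the labels give no replicate numbers shared across groups. Depth limits the lowest genes most, Tgfb1 and Tgfbi.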
